A study of Mus musculus with 9 samples.

Results

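Replication-dependent histone genes make the bulk of the H1, H2A, H2B, H3 and H4 proteins that package newly copied DNA. Their RNA was followed in 9 breast tumours of mice. The members were the rows of the count table whose Ensembl identifier carries a GENCODE M21 symbol starting with Hist1h, Hist2h, Hist3h or Hist4h, without pseudogenes. This gave 65 genes of 49585 in the table, of which 49326 had a symbol. GENCODE M21 lists 70 such symbols. The pseudogenes Hist3h2bb-ps, Hist1h2aj and Hist1h2al were left out, and Hist1h2bm and Hist1h2bh had no matching identifier. The members comprised 6 H1, 18 H2A, 16 H2B, 12 H3 and 13 H4 genes. They lie in 4 clusters on the mouse genome build GRCm38. Hist1 holds 52 genes on chromosome 13 (21715763 to 23934851), Hist2 holds 10 on chromosome 3 (96219865 to 96270132), Hist3 holds 2 on chromosome 11 (58948920 to 58956830) and Hist4 holds 1 on chromosome 6 (136801553 to 136804415).

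H2A, H2B, H3 and H4 form the nucleosome core around which DNA is wound, and H1 binds the DNA between cores. Transcription of these genes is tied to S phase, when DNA is copied, and is driven by NPAT at histone locus bodies. Their messenger RNAs are the known exception among metazoan mRNAs in that they end in a conserved stem-loop in place of a poly(A) tail. The stem-loop is bound by SLBP, and the RNA is cut just downstream with the help of the U7 particle, whose own proteins include Lsm10 and Lsm11. When DNA synthesis stops, these mRNAs are degraded, so their level is widely used as a mark of replicating cells. Libraries made from total RNA keep them, whereas libraries made by poly(A) selection largely lose them.

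The animals of both groups carried K14-Cre, in which the keratin 14 promoter drives Cre in epithelium, the Trp53 genotype labelled Trp53wm-R172H/fl, and a Cre-dependent Cas9 allele labelled Rosa26LSL CAS9-P2A-EGFP/+. Spontaneous breast adenocarcinomas received adeno-associated virus (AAV) on days 0, 3 and 8 and were flash frozen after harvest. AAV-Control was given to 3 of the tumours. The 6 labelled AAV-delta-mut-p53 received virus meant to delete mutant p53. The sources used here give no ages and do not say whether each sample is a separate animal. The titles of AAV-delta-mut-p53 4 and 5 share a number. The p-values below therefore measure the spread between these samples.

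Total counts ran from 18581545 to 30953250 per tumour. Levels are in CPM, which scale each count by the size of its library and by TMM factors. The factors ranged from 0.944 to 1.06. RNA of the targeted gene Trp53 was 39.3 to 48.6 CPM in AAV-Control tumours. AAV-delta-mut-p53 1 had 13.1 CPM and number 2 had 21.99 CPM. The other 4 had 37.8 to 41.5 CPM, within or just below the control range. AAV-delta-mut-p53 2 stood apart in its make-up. Its 8 skeletal muscle markers summed to 38830 CPM, against 26.2 to 360 CPM in the other 8 tumours, and its 6 epithelial markers to 181 CPM, against 1303 to 5041 CPM.

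The stem-loop that defines these mRNAs was found in the GENCODE gene models of 42 members, and its letters separated H4 from the other classes. The transcripts of GENCODE M21 were searched on the coding strand for 16 bases that begin with GG, end with CC, can pair over 6 positions (G with T allowed) and have a loop of 4 bases beginning with TT. A match was present in 4 of 6 H1, 11 of 18 H2A, 8 of 16 H2B, 8 of 12 H3 and 11 of 13 H4 genes, and in 1.21% of 55450 genes of the annotation. The 6 forms found are shown 5′ to 3′ as DNA, because they are the element by which SLBP recognises the RNA, with the loop in capitals.
Form in 24 genes of H1, H2A, H2B and H3: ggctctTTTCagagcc
Form in 6 genes of H1, H2B and H3: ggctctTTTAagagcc
Form in Hist2h2ac: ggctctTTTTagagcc
Form in 7 H4 genes: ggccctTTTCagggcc
Form in Hist1h4i and Hist2h4: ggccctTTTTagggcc
Form in Hist1h4b and Hist1h4j: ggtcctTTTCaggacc
The 11 H4 matches used 2 stems that no H1, H2A, H2B or H3 match shared. In 21 members the annotated transcript ran more than 100 bases past the stem-loop. The absence of a match in the other 23 members says only that these letters are not in the annotated transcript. Several of those models, such as the 381 bases of Hist1h2bn or the 312 bases of Hist1h4k, are short.

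The promoters of the classes differed in the short motifs they held. RefSeq windows (GRCm38.p6) from 250 bases before to 50 bases after the gene start were found for 60 of the 65 members and searched on both strands. CCAAT, the letters bound by NF-Y, occurred in all 6 H1, 18 H2A, 14 H2B and 10 H3 windows but in 3 of 12 H4 windows, and in 37.4% of 32851 windows of all genes. TATAAA occurred in 35 of the 60 (58.3%) and in 13.6% of all windows. ATTTGCAT, the octamer known from H2B promoters, occurred in 5 of 14 H2B and 7 of 18 H2A windows, in none of the others, and in 1.7% of all windows. AAACACA, a motif known from H1 promoters, occurred in 5 of 6 H1, 2 of 18 H2A and 1 of 14 H2B windows and in 7.2% of all windows. GGGCGG occurred in 9 of 12 H4, 4 of 6 H1, 7 of 18 H2A, 2 of 10 H3 and 1 of 14 H2B windows. Its share was 38.3% of the members' windows and 35.7% of all windows. No matches of different motifs shared a base, and neighbouring H2A and H2B genes share part of 1 window, so their counts are not independent. A match is a description and not a binding site. The 130 bases before the start are shown for members that the results below turn on, with matches on either strand in capitals for each of these motifs but GGGCGG, which is left in lower case.
Hist1h1e, chr13:23622559-23622688, strand minus: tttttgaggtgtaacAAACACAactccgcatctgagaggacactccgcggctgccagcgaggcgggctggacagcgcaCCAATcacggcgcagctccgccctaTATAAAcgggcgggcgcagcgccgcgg
Hist1h1a, chr13:23763536-23763665, strand +: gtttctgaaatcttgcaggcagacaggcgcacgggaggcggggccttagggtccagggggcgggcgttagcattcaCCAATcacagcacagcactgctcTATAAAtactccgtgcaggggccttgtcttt
Hist1h1t, chr13:23695681-23695810, strand +: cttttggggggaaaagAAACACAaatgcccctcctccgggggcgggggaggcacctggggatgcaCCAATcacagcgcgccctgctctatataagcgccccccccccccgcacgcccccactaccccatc
Hist1h2bb, chr13:23746604-23746733, strand +: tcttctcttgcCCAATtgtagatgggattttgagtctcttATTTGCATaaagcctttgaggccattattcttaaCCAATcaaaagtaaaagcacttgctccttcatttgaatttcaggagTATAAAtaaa
Hist1h2bf, chr13:23574208-23574337, strand minus: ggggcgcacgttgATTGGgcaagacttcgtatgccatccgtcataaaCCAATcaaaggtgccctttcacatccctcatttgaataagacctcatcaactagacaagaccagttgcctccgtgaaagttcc
Hist1h3d, chr13:23575633-23575762, strand +: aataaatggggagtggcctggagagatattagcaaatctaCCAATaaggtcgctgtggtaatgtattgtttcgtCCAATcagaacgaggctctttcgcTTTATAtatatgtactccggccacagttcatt
Hist1h4d, chr13:23581438-23581567, strand +: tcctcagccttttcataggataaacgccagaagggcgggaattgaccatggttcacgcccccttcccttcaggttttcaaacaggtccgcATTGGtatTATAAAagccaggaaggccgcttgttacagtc
Hist1h1a was the 1 H1 gene without AAACACA in its window. The testis H1 gene Hist1h1t held both AAACACA and CCAAT like the somatic Hist1h1e, and no TATAAA.

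Most members outside class H2A gave ample counts. A gene was tested when edgeR's filter kept it (a minimum count of 10), which left 52 members among 19606 genes. Of the 13 others, Hist2h2aa1, Hist2h2aa2, Hist2h3c1, Hist2h3b, Hist2h2bb and Hist1h2ap had no counts in any tumour. A count of 0 allows up to 3 counts, or 0.167 CPM in the shallowest and 0.0999 CPM in the deepest library, for counting error only. Hist1h2ai, Hist1h2an, Hist1h2ag, Hist1h2ao, Hist1h2aa, Hist1h2ba and Hist1h2br had at most 43 counts in 1 tumour. Hist2h2aa1, Hist2h2aa2, Hist2h3c1, Hist2h3b and Hist2h2bb have no stretch of 75 bases that is found in no other gene on either strand, so reads from them cannot be assigned to 1 gene. A 0 there is not a measure of the RNA.

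Levels are compared between genes as mean CPM per kilobase of exons over the 9 tumours. The highest were Hist1h1a (286), Hist1h4h (272) and Hist1h4d (270), followed by Hist1h2bb (229), Hist1h4f (225) and Hist1h2bn (223). Among H3 genes Hist1h3b led with 148 and Hist1h3g followed with 117. The class medians were 103 for H1, 82.2 for H4, 55.2 for H3 and 36.2 for H2B, and 0.863 for H2A. No H2A gene reached 10, the highest being Hist1h2ak with 9.99. Neighbours in this order overlap in their range over tumours, which for members of at least 5 CPM spanned 3.86-fold to 49.6-fold. The order also rests on annotated exon lengths, and some models run far past the stem-loop, by 770 bases in Hist1h4d and 4884 in Hist1h1d. Of the 75-base stretches of Hist1h2bn 27.7% are unique, so some of its reads cannot be assigned to it alone.

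The low values of H2A went with an overlap on the opposite strand. All 18 H2A genes overlap a gene model on the other strand, 17 of them a predicted miRNA model that covers 129 to 144 bases and has 0 counts in every tumour. Outside H2A, Hist2h2bb, Hist2h3b and Hist1h4b overlap a gene model on the other strand. The 21 overlapping members had between 0 and 9.99 CPM per kilobase (median 0.743). The 44 others had a median of 64.4 and reached 286, and 36 of them had at least 10. Members were then limited to those with at least 50% of their 75-base stretches unique. The 6 overlapping genes among them, all H2A, had a median of 2.26. The 28 others, none of them H2A, had a median of 71.2. This contrast cannot separate overlap from class, because it sets H2A against the other classes. Outside H2A, Hist2h2bb and Hist2h3b have no unique stretch, and Hist1h4b lies below the 50% limit. The sources used here do not say how the counting treated strand and overlaps, and their part in the low H2A values was not tested. This pattern was noticed after the values had been seen.

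The H2A genes also lay below their divergent H2B neighbours. In 12 pairs of an H2A and an H2B gene the transcription starts face away from each other across 175 to 305 bases. Of these pairs 9 had an H2B gene with a mean of at least 1 CPM. In 8 of the 9 the H2B gene had more CPM per kilobase than its H2A partner in every tumour, and the median ratio over the 9 was 34.4. In 3 of the 9 pairs the H2A gene had the larger percentage of unique 75-base stretches. Hist1h2ac and Hist1h2bc were 1 of these, with 88.9% and 72.9% unique, and per kilobase Hist1h2bc exceeded Hist1h2ac 154-fold. The highest ratio, 197, was that of Hist1h2bj over Hist1h2ag, of which 49.6% and 22.4% were unique. The part of shared sequence in these ratios was not tested. Before scaling by length their means were 84.6 and 1.18 CPM, and they are annotated with 1156 and 2482 bases of exons. Hist2h2be and Hist2h2ac were the exception, with a ratio of 0.599, and Hist2h2be is annotated with 2620 bases of exons.

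**Figure D1:**
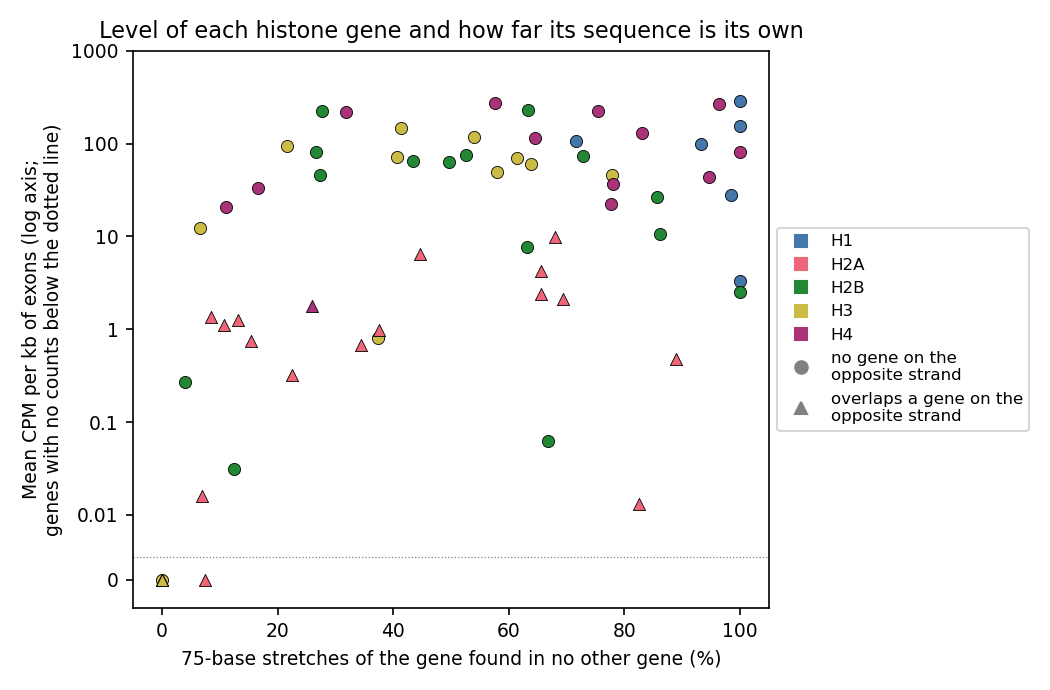
Mean CPM per kilobase of exons over 9 tumours (log axis) against the percentage of 75-base stretches that are found in no other gene, for 65 histone genes, coloured by class. Triangles, genes that overlap a gene model on the opposite strand, stay below 10 CPM per kilobase, and genes with no counts are drawn below the dotted line.

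The amount of histone RNA differed more between tumours of 1 group than between the groups. Summed over the 65 genes, AAV-Control 1, 2 and 3 held 5117, 3939 and 1481 CPM. The AAV-delta-mut-p53 tumours held from 997 CPM in number 2 to 5311 CPM in number 4, with a median of 2529 CPM. Both groups thus reach from low to high and overlap almost entirely. The means were 3512 ± 1855 CPM (SD, n = 3) and 2803 ± 1412 CPM (SD, n = 6), a log2 ratio of -0.33. Without AAV-Control 1 the ratio was 0.04, and without AAV-Control 3 it was -0.70, so single controls set its size and direction. The largest sum was 5.33 times the smallest. In bulk tissue, fewer cycling cells and less histone RNA per cell cannot be told apart.

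**Figure D2:**
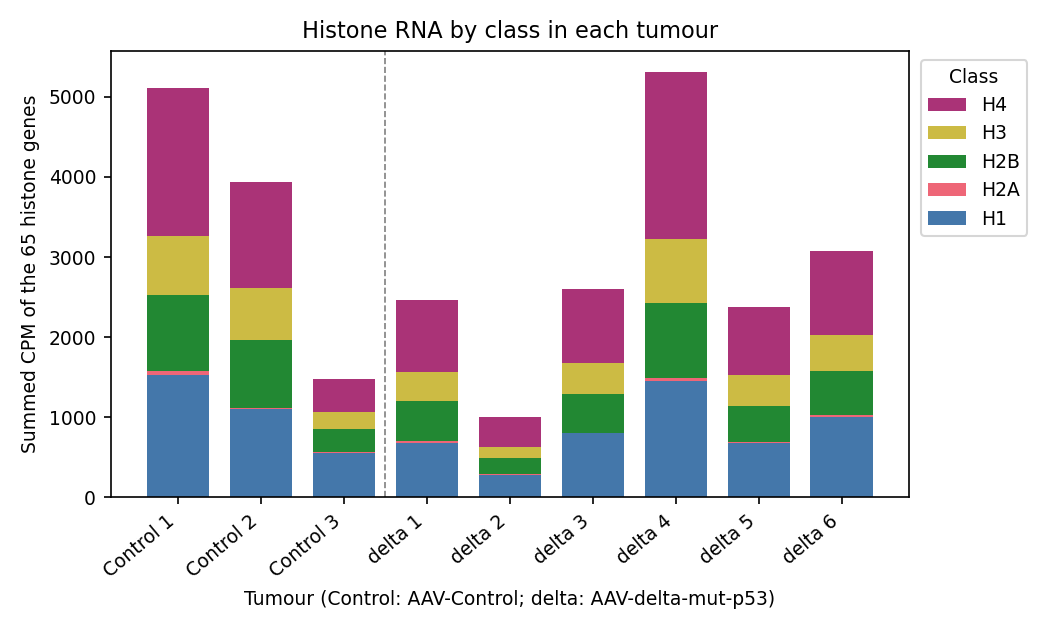
Summed CPM of the 65 histone genes in each tumour, stacked by class, with AAV-Control left and AAV-delta-mut-p53 right of the dashed line. AAV-Control 1 (5117 CPM) and AAV-delta-mut-p53 4 (5311 CPM) are the highest bars, and AAV-Control 3 (1481 CPM) and AAV-delta-mut-p53 2 (997 CPM) the lowest.

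While the amount varied, the shares of the classes other than H2A in the histone RNA stayed close, each ranging at most 1.39-fold. H2A took 0.404% to 0.959%, a range of 2.37-fold. H2B took 17.8% to 21.3% of the summed CPM in all 9 tumours, and H3 took 14.0% to 16.5%. H4 took 33.8% to 39.3% in 8 tumours and 28.2% in AAV-Control 3. H1 took 27.3% to 32.8% in the same 8 and 37.5% in AAV-Control 3. That library therefore differed from the rest in both classes, and Hist1h1a made up 14.2% of its histone RNA against 2.79% to 9.28% elsewhere. Shares of single genes were steadiest for Hist1h1e, where the highest was 1.35 times the lowest, and least steady for Hist1h1t, at 69.3 times, leaving out Hist1h2ad, which had no counts in AAV-delta-mut-p53 2.

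Gene by gene mostly the same tumours were lowest and highest, while agreement over the full order was not measured. Of the 52 tested members, AAV-delta-mut-p53 2 was lowest in 32 and AAV-Control 3 in 11. AAV-Control 1 was highest in 23, AAV-delta-mut-p53 4 in 20 and AAV-Control 2 in 7. The median member stood at 178%, 130% and 37.4% of its own 9-tumour mean in AAV-Control 1 to 3. In AAV-delta-mut-p53 1 to 6 it stood at 79.4%, 31.8%, 78.8%, 166%, 72.9% and 104%. The 38 tested members with a mean of at least 5 CPM ranged over a median of 7.38-fold between their lowest and highest tumour, least for Hist1h1c (3.86-fold) and most for Hist3h2ba (49.6-fold). The heat map shows this as columns, not blocks of genes.

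**Figure D3:**
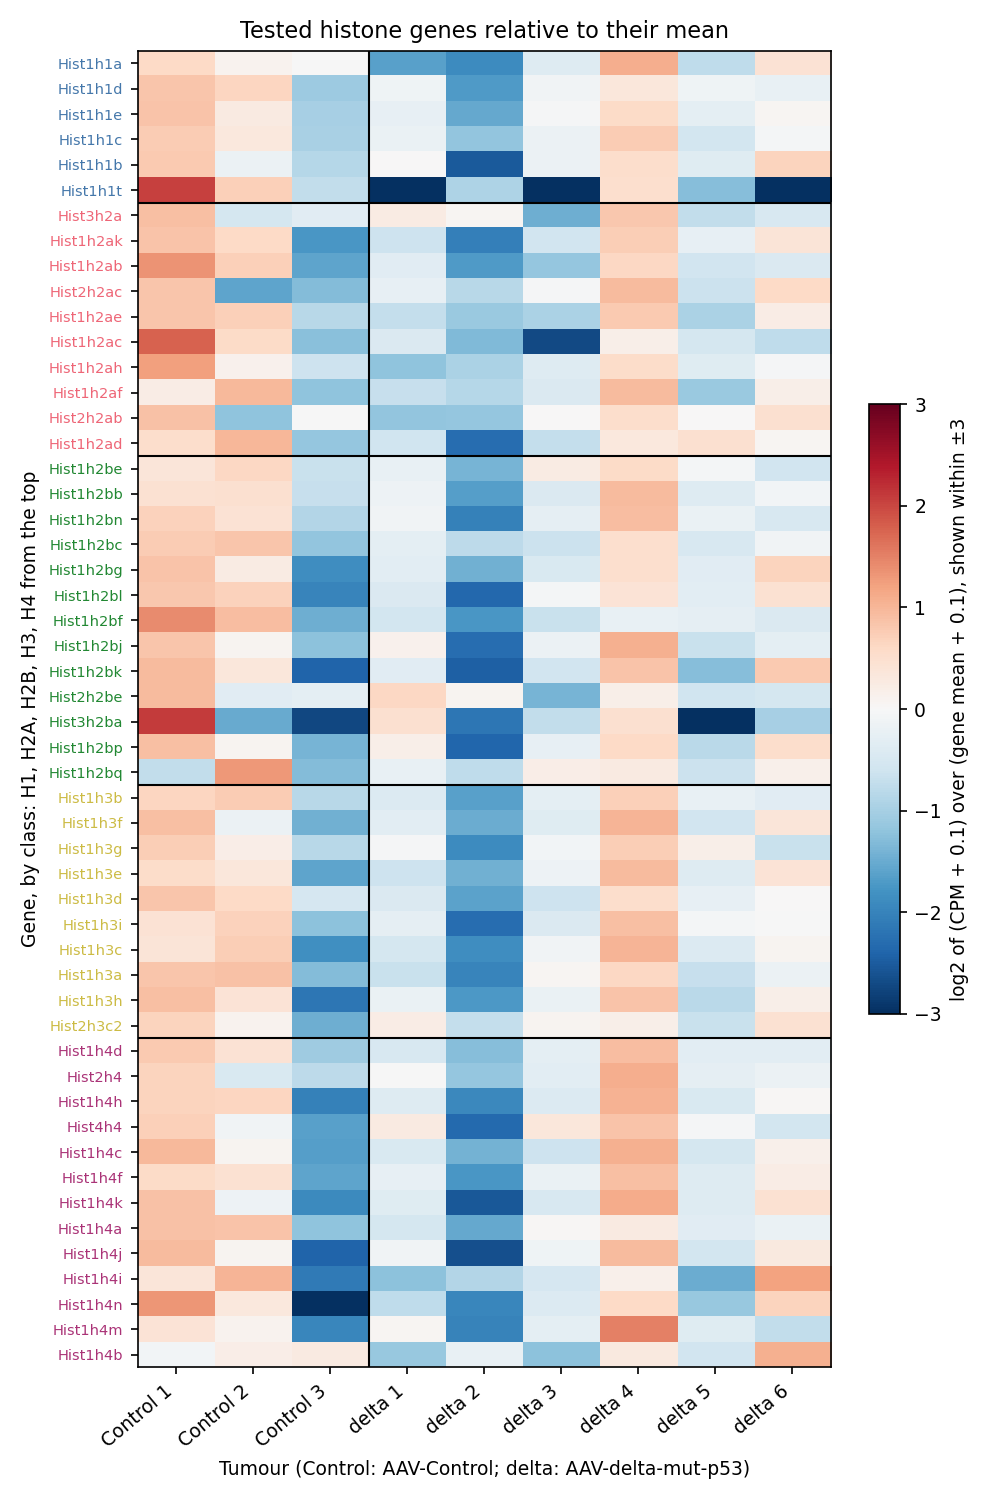
Each of 52 tested histone genes (rows, grouped by class from H1 at the top to H4 at the bottom) in each of 9 tumours (columns), as log2 of CPM over the gene's mean, each with 0.1 added and shown within ±3. AAV-Control 1 and AAV-delta-mut-p53 4 are red and AAV-Control 3 and AAV-delta-mut-p53 2 blue in most rows of every class.

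The comparison of AAV-delta-mut-p53 with AAV-Control asked whether histone RNA changed where mutant p53 had been targeted. No member passed edgeR's quasi-likelihood test at a false discovery rate (FDR) of 0.05, and the smallest adjusted p was 0.677. Of all 19606 genes 0% passed. At an unadjusted p under 0.05, 2 of 52 members (3.85%) were lower and 0 higher, against 7.07% of all genes (1387), so the members' share lay below the background. No member had groups that did not overlap, against 3.06% of all genes (600). DESeq2 called 0 of 52 members at an FDR of 0.05, against 0.553% of 18806 genes, and 3 members at an unadjusted p under 0.05, against 10.2% of all genes. Fitted means were lower in AAV-delta-mut-p53 for 48 members and higher for 4. The median log2 fold change was -0.32 for the members and 0.09 for all genes, with a median SE of 0.61 for the members. The same tumours were high or low in most members, so the members' directions are not independent of each other. Without AAV-Control 1 the median was 0.01, and without AAV-Control 3 it was -0.71.

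**Figure D4:**
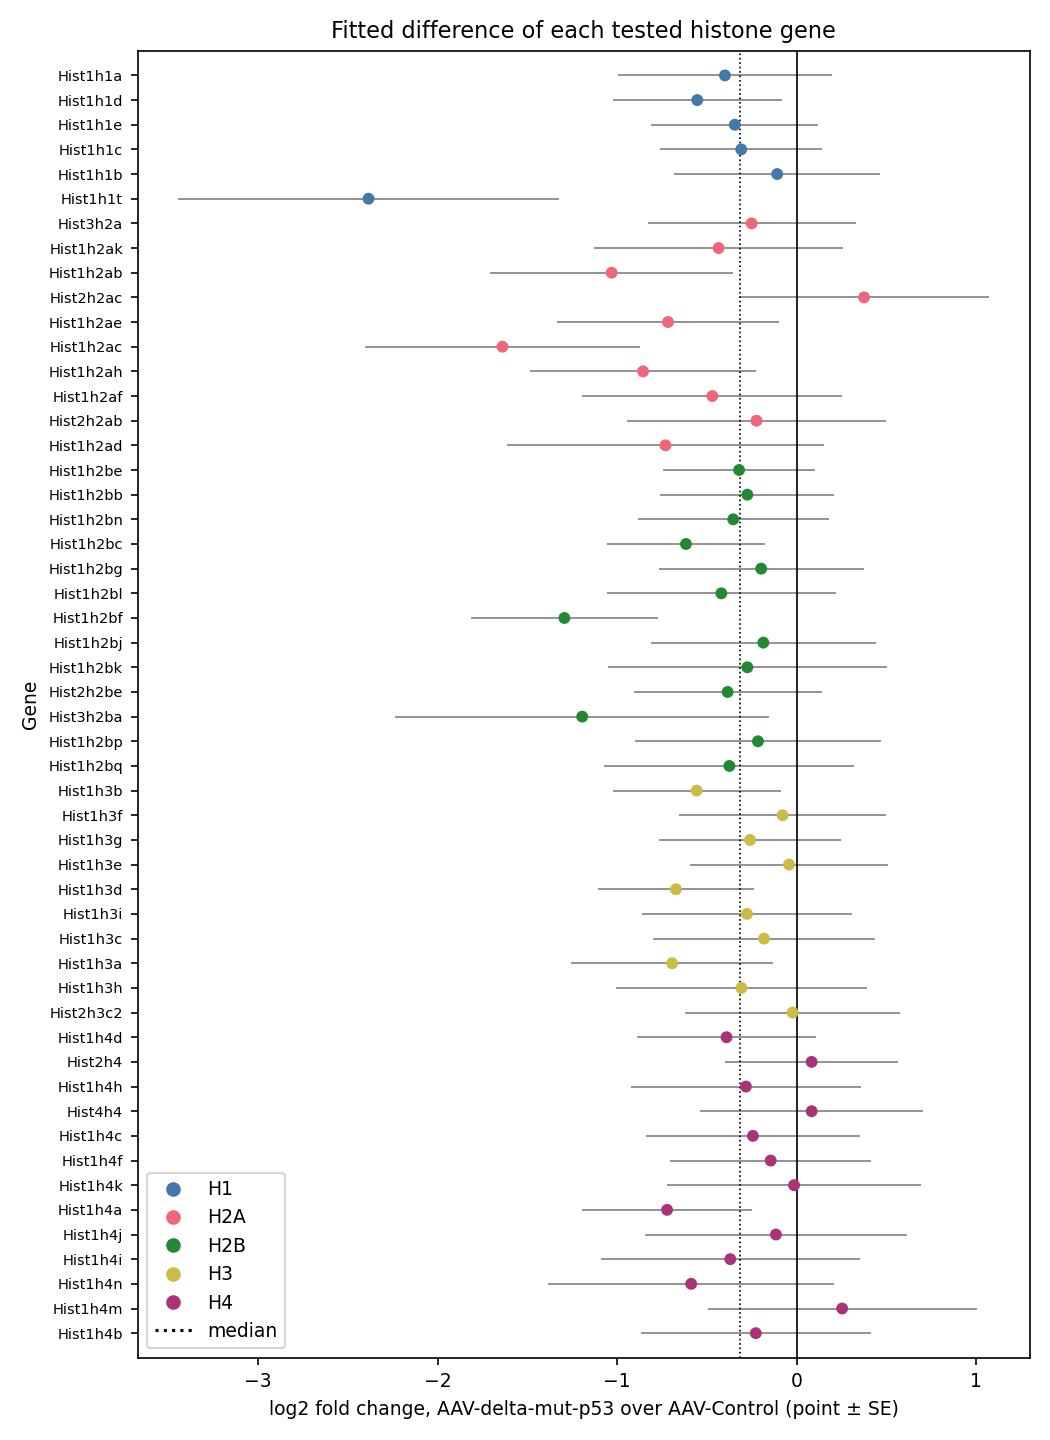
Log2 fold change of AAV-delta-mut-p53 over AAV-Control for each of 52 tested histone genes, coloured by class, with bars of ± 1 SE. Most points lie between -1 and 0 around the median of -0.32 (dotted line), and 4 lie above 0.

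The linker histones include the most abundant members. Hist1h1a (ENSMUSG00000049539.2, chromosome 13, 23763666 to 23764406), a somatic H1 subtype whose promoter is shown above, held 319, 228 and 211 CPM in AAV-Control. It held 57.4 to 449 CPM (median 144) in AAV-delta-mut-p53, with number 4 highest of all tumours. AAV-Control 3, low in most members, stood in the middle of the 9 tumours here. Its log2 fold change was -0.40 (SE 0.59). Hist1h1e held 370, 246 and 103 CPM in AAV-Control and 70.6 to 304 CPM (median 187) in the other group, a log2 fold change of -0.35 (SE 0.47). It shares 496 bases of exon with Hist1h2be on the same strand, so reads there could be split between them. Hist1h1b held 197, 102 and 63.7 CPM against 20.1 to 181 CPM (median 109), a log2 fold change of -0.11 (SE 0.57). The remaining somatic genes, Hist1h1c and Hist1h1d, differed by -0.31 (SE 0.45) and -0.55 (SE 0.47) on the log2 scale. None passed the test, and the groups overlapped in each. Hist1h1c and Hist1h1d were added to complete the class after their values had been seen.

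Hist1h1t (ENSMUSG00000036211.3, chromosome 13, 23695814 to 23696725) encodes the H1 variant of spermatocytes and was the weakest H1 gene in these tumours. It held 13.0, 5.10 and 1.78 CPM in AAV-Control. In AAV-delta-mut-p53 it held 0.0899 CPM in number 1, 0.244 in number 3 and 0.163 in number 6, and 1.57, 4.35 and 1.20 in numbers 2, 4 and 5. The groups overlapped, since AAV-delta-mut-p53 4 lay above AAV-Control 3. The log2 fold change was -2.39 (SE 1.06, edgeR unadjusted p = 0.0469, adjusted p = 0.677). The exact permutation test, 2-sided on log2(CPM + 1), gave p = 0.0357, where 84 assignments allow no less than 0.0119. This value is not adjusted for the 52 members. Leaving out any of AAV-Control 1, AAV-Control 2 and AAV-delta-mut-p53 1, 2, 3, 5 and 6 took the edgeR p above 0.05, as did scaling by upper quartile, and the log2 fold change ran from -3.32 to -1.45. As a share of all histone RNA it ran from 0.00366% to 0.253%.

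The H2A genes that could be tested were low throughout. Hist1h2ak held 7.13, 6.00 and 1.11 CPM in AAV-Control and 0.878 to 6.64 CPM (median 2.93) in AAV-delta-mut-p53. Hist1h2ab held 7.87, 5.07 and 0.951 CPM against 0.878 to 4.74 CPM (median 2.14), a log2 fold change of -1.03 (SE 0.68). In both, AAV-Control 1 was highest and AAV-delta-mut-p53 2 lowest, as in many other members. Hist1h2ac, the partner of Hist1h2bc, had the smallest unadjusted p of its class (edgeR, 0.0568). Its values were 4.25, 1.80 and 0.436 CPM against 0.0977 to 1.34 CPM (median 0.724), a log2 fold change of -1.64 (SE 0.77). Hist2h2ac was the H2A gene with the higher mean in AAV-delta-mut-p53, at 4.005, 0.667 and 0.832 CPM against 1.20 to 4.35 CPM (median 1.996), a log2 fold change of 0.38 (SE 0.70). Without AAV-Control 1 it was 1.66 and its unadjusted p passed 0.05, and without AAV-Control 2 it was -0.03. Of the 10 tested H2A genes 9 had the lower mean in AAV-delta-mut-p53 and 0 had p under 0.05, against 7.07% of all genes.

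Hist1h2bf had the smallest unadjusted p of the H2B genes. This gene (ENSMUSG00000069268.4, chromosome 13, 23573736 to 23574196) held 80.6, 56.7 and 10.7 CPM in AAV-Control and 8.82 to 25.8 CPM (median 21.4) in AAV-delta-mut-p53. The high values are those of AAV-Control 1 and 2, while AAV-Control 3 lay below 5 of the 6 others. The log2 fold change was -1.29 (SE 0.52, edgeR unadjusted p = 0.0311, adjusted p = 0.677, exact permutation p = 0.155). Leaving out AAV-Control 1, AAV-Control 2 or AAV-delta-mut-p53 3 took the unadjusted p above 0.05, and without AAV-Control 1 the log2 fold change was -0.75. AAV-delta-mut-p53 4, as rich in histone RNA as AAV-Control 1, held 25.8 CPM of it. Of its 75-base stretches 43.4% are unique, so some of its reads cannot be assigned to it alone.

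Hist1h2bb, the H2B gene with the most RNA per kilobase, held 161, 162 and 72.7 CPM in AAV-Control and 37.1 to 226 CPM (median 97.0) in AAV-delta-mut-p53, a log2 fold change of -0.28 (SE 0.48). Its promoter, shown above, holds the octamer and TATAAA. Hist1h2bn differed by -0.35 (SE 0.53) and Hist1h2bl by -0.42 (SE 0.64) on the log2 scale. All 13 tested H2B genes had the lower mean in AAV-delta-mut-p53, from -1.29 to -0.19. Of them 1 (7.69%, against 7.07% of all genes) had an unadjusted p under 0.05. The same tumours were high or low in most members, so these directions are not independent.

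The H3 genes gave 10 lower means and 0 with p under 0.05, against 7.07% of all genes. Hist1h3b held 143, 156 and 51.9 CPM in AAV-Control and 29.9 to 150.1 CPM (median 74.2) in AAV-delta-mut-p53, a log2 fold change of -0.56 (SE 0.47). Hist1h3d held 103, 86.4 and 40.5 CPM against 18.7 to 82.5 CPM (median 45.5), a log2 fold change of -0.67 (SE 0.43, edgeR unadjusted p = 0.15). Here AAV-Control 1 and 2 were the highest of all 9 tumours, with AAV-delta-mut-p53 4 next. Hist1h3g and Hist1h3i differed by -0.26 (SE 0.51) and -0.28 (SE 0.58). These genes encode the H3.1 and H3.2 proteins laid down during replication, which differ from the H3.3 protein made outside S phase.

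Among H4 genes, which all encode 1 protein, Hist1h4d had the most CPM of any member (chromosome 13, 23581598 to 23582735). It held 533, 417 and 146 CPM in AAV-Control and 127 to 580 CPM (median 247) in AAV-delta-mut-p53, a log2 fold change of -0.39 (SE 0.50). AAV-delta-mut-p53 4 was highest of all 9 and number 2 lowest, and the other 4 lay between AAV-Control 3 and AAV-Control 2. Without AAV-Control 1 it was -0.02, and without AAV-Control 3 it was -0.78. Hist1h4h and Hist1h4f had the same 3 highest tumours, with differences of -0.28 (SE 0.64) and -0.15 (SE 0.56). Of the 13 H4 genes, all tested, 10 had the lower mean in AAV-delta-mut-p53. The 3 with the higher mean were Hist1h4m at 0.25 (SE 0.75), Hist2h4 at 0.08 (SE 0.48) and Hist4h4 at 0.08 (SE 0.62). Their direction depended on AAV-delta-mut-p53 4 and AAV-Control 3. Without the first they were -0.35, -0.27 and -0.16, and without the second -0.19, -0.18 and -0.33. Hist2h4 was also at -0.08 without AAV-Control 2.

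The clusters outside chromosome 13 hold few genes that could be measured. Hist2 summed to 231, 104 and 84.9 CPM in AAV-Control and 69.1 to 300 CPM (median 124) in AAV-delta-mut-p53, nearly all of it from Hist2h4. The 1 gene of Hist4, Hist4h4, held 204, 117 and 40.6 CPM against 24.8 to 227 CPM (median 136). In both clusters AAV-delta-mut-p53 4 and AAV-Control 1 were highest, as in Hist1. The Hist3 cluster, with the same 2 tumours highest, ranged most. Its H2B gene Hist3h2ba held 28.5 CPM in AAV-Control 1 but 2.27 and 0.911 CPM in AAV-Control 2 and 3, and 0.575 to 9.31 CPM (median 3.58) in AAV-delta-mut-p53, a log2 fold change of -1.20 (SE 1.04). It was named after its values had been seen.

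The genes that transcribe and process histone mRNA summed to 1144 to 1903 CPM, a range of 1.66-fold against 5.33-fold for the histone RNA. In a list of 26 such genes 24 were tested, and 1 (4.17%, against 7.07% of all genes) had an unadjusted p under 0.05. It was Cstf2, a subunit of the cleavage stimulation factor, with the lower mean in AAV-delta-mut-p53. Slbp, the stem-loop binding protein, held 86.0, 66.4 and 80.9 CPM in AAV-Control and 39.1 to 81.7 CPM (median 51.3) in AAV-delta-mut-p53, a log2 fold change of -0.50 (SE 0.27, edgeR unadjusted p = 0.0928). AAV-Control 3, with little histone RNA, was thus not low in Slbp. Npat, the coactivator of histone genes, held 97.9, 98.4 and 140.5 CPM against 52.1 to 133 CPM (median 95.0), and AAV-Control 3 was the highest of 9. Casp8ap2, also of histone locus bodies, was 99.0, 102 and 158 CPM against 56.1 to 158 CPM (median 90.5). Hinfp, which activates H4 genes, differed by 0.47 (SE 0.44) on the log2 scale and was highest in AAV-delta-mut-p53 4 at 109.5 CPM. The U7 proteins Lsm10 (0.28, SE 0.39) and Lsm11 (0.26, SE 0.38), the U7-associated Zfp473 (0.74, SE 0.65) and the nuclease Eri1 (-0.26, SE 0.41) did not pass.

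Chaperones that carry new histones were represented by 25 genes, all tested, of which 2 (8.0%, against 7.07% of all genes) had an unadjusted p under 0.05, both with the lower mean in AAV-delta-mut-p53. Nasp, a chaperone of H1 and of H3 with H4, held 124, 109 and 297 CPM in AAV-Control and 55.8 to 108 CPM (median 88.8) in AAV-delta-mut-p53. Its groups did not overlap (107.6 CPM at most against 108.9 CPM at least), as in 3.06% of all genes. The log2 fold change was -1.02 (SE 0.35, edgeR adjusted p = 0.677). Rbbp7, a histone-binding subunit of several chromatin complexes, differed by -1.03 (SE 0.33).

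The genes listed as replication-independent histones summed to 1889, 1258 and 1337 CPM in AAV-Control and 579 to 2200 CPM (median 1654) in AAV-delta-mut-p53. Numbers 2 and 4 were again lowest and highest, but AAV-Control 3 was not below AAV-Control 2. Of 13 listed, 11 were tested and 2 (18.2%, against 7.07% of all genes) had an unadjusted p under 0.05, both lower in mean in AAV-delta-mut-p53. These were Cenpa, the H3 variant of centromeres (log2 fold change -1.03, SE 0.36), and H2afy2, which encodes a macroH2A (-1.93, SE 0.84). Cenpa held 115, 72.4 and 70.4 CPM in AAV-Control and 19.4 to 60.4 CPM (median 42.6) in the other group. Its groups did not overlap, as in 3.06% of all genes. Neither Cenpa nor H2afy2 passed after adjustment (edgeR, 0.677). H3f3a and H3f3b, which encode H3.3, differed by 0.10 (SE 0.39) and 0.31 (SE 0.48). The H3 members per unit of H3f3a plus H3f3b were 0.682, 0.970 and 0.273 in AAV-Control and 0.230 to 0.608 (median 0.432) in AAV-delta-mut-p53. H1f0, the H1 of resting cells, differed by 0.16 (SE 0.62) and H2afz, an H2A variant, by -0.54 (SE 0.32).

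The cell cycle lists separated the 2 tumours that were low in histone RNA. The 37 S phase genes summed to 2412, 2604 and 2602 CPM in AAV-Control and 909 to 2891 CPM (median 2214) in AAV-delta-mut-p53. The 28 genes of G2 and mitosis summed to 4381, 4238 and 6054 CPM and to 1234 to 4842 CPM (median 3711). AAV-delta-mut-p53 2 was the lowest tumour in both lists, as in the histones. AAV-Control 3 was the highest of 9 for G2 and mitosis and within the control range for S phase. Its histone RNA per unit of S phase RNA was 0.569, the lowest of 9, against 2.12 and 1.51 in the other controls. In AAV-delta-mut-p53 this ratio was 0.899 to 2.48 (median 1.18), highest in number 4.

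**Figure D5:**
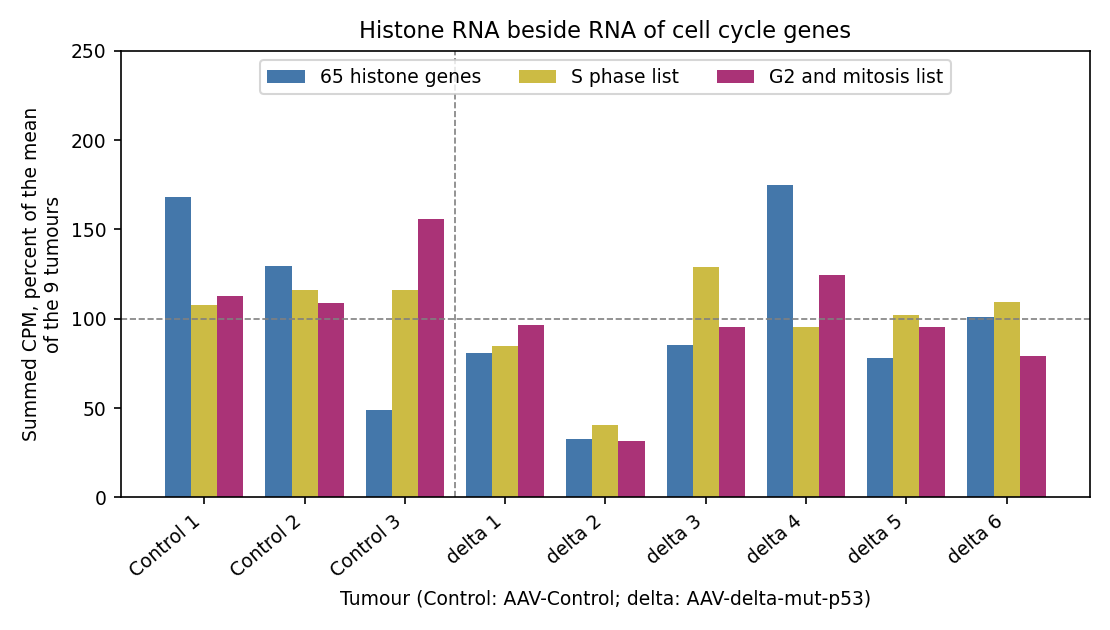
Summed CPM of 65 histone genes, 37 S phase genes and 28 genes of G2 and mitosis in each of 9 tumours, as a percentage of each sum's mean over the tumours. In AAV-delta-mut-p53 2 all 3 bars are low, whereas in AAV-Control 3 the histone bar (1481 CPM) is low beside an S phase sum of 2602 CPM and a G2 and mitosis sum of 6054 CPM.

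Of the S phase genes 28 of 37 and of the G2 and mitosis genes 27 of 28 had the lower mean in AAV-delta-mut-p53, with 2 in each list at an unadjusted p under 0.05 and medians of -0.22 and -0.53 on the log2 scale. These shares, 5.41% and 7.14%, were below or near the 7.07% of all genes. Those genes were Tyms and Pola1 of DNA synthesis, and Mki67 and Kif4 of dividing cells. The proliferation marker Mki67 held 941, 1361 and 1452 CPM in AAV-Control and 363 to 1031 CPM (median 684) in AAV-delta-mut-p53, a log2 fold change of -0.84 (SE 0.36). Mcm2 (-0.13, SE 0.42), Pcna (-0.10, SE 0.35), Rrm2 (0.30, SE 0.47), E2f1 (-0.06, SE 0.40), Ccne1 (-0.64, SE 0.41), Ccne2 (-0.71, SE 0.42) and Top2a (-0.14, SE 0.44) missed that threshold. Over the 6 pathway lists 10 genes had an unadjusted p under 0.05 with all tumours and 3 without AAV-Control 3. The share of all genes was 7.07% and 5.11% in these fits. AAV-Control 3 was the control with the most RNA of G2 and mitosis. The part of cell cycle make-up in the histone values was not tested.

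Other RNAs made without poly(A) tails were set beside the histones, and whether they follow the capture of histone mRNA was not tested. The 12 of 14 listed genes that were in the table, most of their RNA being Rn7sk and Rpph1, summed to 77830, 112300 and 55160 CPM in AAV-Control and 35910 to 108600 CPM (median 54150) in AAV-delta-mut-p53. AAV-Control 3 was the lowest control here too, and AAV-delta-mut-p53 4 the highest of its group, as in the histones. AAV-delta-mut-p53 6 was the lowest of 9 although its histone sum (3075 CPM) was above its group's median. Of the 10 tested, 1 had an unadjusted p under 0.05, against 7.07% of all genes. It was Scarna6, with the higher mean in AAV-delta-mut-p53 (log2 fold change 1.21, SE 0.51). The part of RNA capture in the histone values was not tested.

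The 2 tumours low in histone RNA differed from each other in markers of other cells, with opposite extremes for fibroblasts and for B and plasma cells. In AAV-Control 3 the 4 erythroid markers summed to 1113 CPM, against 94.2 to 414 CPM elsewhere, and its fibroblast sum (392 CPM) and B and plasma cell sum (23.3 CPM) were the lowest of 9. Its other marker sums lay within the range of the other tumours. AAV-delta-mut-p53 2 held, besides the muscle markers given above, the highest fibroblast (7590 CPM), macrophage (1815 CPM), B and plasma cell (661 CPM) and adipocyte (273 CPM) sums. Between the groups, the 5 neutrophil markers summed to 8.54 to 54.4 CPM in AAV-Control and 37.6 to 433 CPM in AAV-delta-mut-p53, and all 5 had the higher mean there. B and plasma cell markers summed to 23.3 to 38.0 CPM and 30.5 to 661 CPM, with all 5 tested higher in mean. Macrophage markers summed to 389 to 491 CPM and 246 to 1815 CPM, with all 7 higher in mean. Endothelial markers summed to 197 to 413 CPM and 92.5 to 282 CPM, with 3 of 4 lower in mean. An unadjusted p under 0.05 (edgeR) was reached by 2 of 5 neutrophil, 3 of 5 B and plasma cell, 1 of 7 macrophage and 2 of 4 endothelial markers. It was also reached by 1 of 6 epithelial and 1 of 8 skeletal muscle markers, both with the higher mean in AAV-delta-mut-p53. The share over all genes was 7.07%, and no marker passed after adjustment. The part of these cells in the histone values was not tested.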

How the data were processed

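Total RNA libraries were made with a strand-specific kit, per the labels' protocols, and the authors deposited the raw counts of the 9 tumours in 1 table with a row for each gene. The submitters' processing notes list STAR 2.6.0b, DESeq2 and GRCm38 with no role. The counting program, its strand setting and the annotation are named by none of the sources used here.

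Counts were scaled by TMM, filtered with edgeR's filterByExpr (minimum count 10) and tested over all 19606 kept genes with the 2-sided quasi-likelihood test of edgeR 4.0.16 in R 4.3.3, with Benjamini-Hochberg adjustment. A positive log2 fold change means more RNA in AAV-delta-mut-p53. Single genes were also compared by an exact permutation test over 84 assignments, with a pseudocount of 1. Alternatives were DESeq2 1.42.0, voom with quality weights in limma 3.58.1, other scalings and filters, the like-titled pair summed, and each tumour left out.

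Gene models were GENCODE M21, which may not be the authors' release. The members and lists were chosen with earlier results of these data known. The members named were, in each class, the 3 with the most CPM per kilobase, and the 4 with the smallest p in each direction. A fixed set of pathway genes and the 2 with the smallest p of each other list were named too. Intervals and floors cover counting error only.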

Additional observations from a re-analysis of the deposited data

Results flagged for a closer look

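AAV-delta-mut-p53 4 lay far above the other 5 tumours of its group in 7 of 64 values examined, by Dixon's criterion for 6 samples. Chance flags about 1 group in 20. The values were 4.35 CPM for Hist1h1t, 580 CPM for Hist1h4d, 23.8 CPM for Hist1h4m, 287 CPM for Hist2h4, 300 CPM for the sum of the Hist2 cluster, 121 CPM for H2afx and 2.48 for histone RNA per unit of S phase RNA. The same tumours were high or low in most members, so these values are not independent.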

How the results depend on the processing

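Under the other settings that kept every tumour, the median log2 fold change of the members stayed between -0.45 and -0.30, and no member passed the FDR threshold. Over all genes DESeq2 called 104 where edgeR called 0. Members with an unadjusted p under 0.05 numbered 2 in the main fit and 1 with upper quartile factors. They numbered 1 among members with at least 50% unique 75-base stretches, a restriction chosen after seeing the data. With DESeq2, with voom and with the like-titled pair summed they numbered 3, Hist1h2ac being the addition. The share of all genes under these settings was 10.2%, 10.4% and 8.72%. With each tumour left out they numbered 0 to 6 (6 without AAV-Control 3, 0 without AAV-Control 2 or AAV-delta-mut-p53 3), while the share of all genes was 5.11%, 4.24% and 6.36% in those fits. The pathway lists held 3 to 12 such genes, with 3 without AAV-Control 3. The fold change turned for Hist1h4m (-0.032), Hist2h4 (-0.095) and Hist4h4 (-0.057) with the like-titled pair summed, and for Hist2h4 (-0.138) and Hist4h4 (-0.056) with voom; the cause was not tested. With a tumour left out, values ran from -0.424 to 0.431 for Hist1h1b, -0.714 to 0.108 for Hist1h1e, -0.587 to 0.126 for Hist1h3g, -0.674 to 0.067 for Hist1h3i, -0.577 to 0.166 for Hist1h4f and -0.764 to 0.032 for Hist1h4h. They ran from -0.354 to 0.672 for Hist1h4m, -0.026 to 1.656 for Hist2h2ac, -0.271 to 0.634 for Hist2h4 and -0.334 to 0.693 for Hist4h4. Among the other named members they kept their sign, over ranges such as -0.849 to -0.202 for Hist1h1a, -0.623 to -0.09 for Hist1h2bb, -0.701 to -0.051 for Hist1h2bn and -0.984 to -0.408 for Hist1h3d. No paired analysis was possible because the labels give the groups no shared replicate numbers. Depth limits the precision of members with few counts, such as Hist1h2ad with 87 and Hist2h2ab with 93 over the 9 tumours.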

Other observations

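The pseudogene Hist1h2al (chromosome 13, 51202727 to 51203065), left out of the members, held 49.8, 10.6 and 1.35 CPM in AAV-Control. In AAV-delta-mut-p53 1 to 5 it held 8.68, 6.15, 15.4, 41.0 and 4.69 CPM, and AAV-delta-mut-p53 6 had 0 counts. It was named after its values had been seen.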
